A study of Drosophila melanogaster with 249 samples.

Results

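The chemoreceptor genes of Drosophila melanogaster belong to 3 families, the odorant receptors (Or), the gustatory receptors (Gr) and the ionotropic receptors (Ir). Genes were taken as members where the BDGP6 symbol was Or, Gr or Ir followed by a digit, or Orco, and where the mean normalized read count over all libraries was above 1. Of 187 such genes among 17142 genes in the tables, 90 were members, made up of 42 of 61 Or genes, 22 of 60 Gr genes and 26 of 66 Ir genes. They lay on arms 2L (15), 2R (21), 3L (23), 3R (18) and X (13). Just inside the limit were Gr59e with a mean of 1.03 and Or65c and Ir7c with 1.05, and just outside it were Ir94e (0.991), Gr59f (0.978) and Ir75d (0.969). The members and gene lists used here were chosen with earlier results of these data known.

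In flies, an odorant receptor works as a channel built from 1 tuning receptor and the coreceptor Orco, and each olfactory neuron of the antenna or maxillary palp usually carries a single tuning receptor. Ionotropic receptors descend from glutamate receptors and pair a tuning subunit with a coreceptor such as Ir8a, Ir25a or Ir76b in neurons for acids, amines, humidity and temperature. Gustatory receptors detect sugars, bitter compounds, carbon dioxide and contact pheromones, in the labellum and pharynx of the head and also on legs and wings, which head libraries do not hold. A head thus holds few neurons for any single receptor. Low counts are the rule for these genes.

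RNA-Seq of poly-A+ RNA was made from pools of 10 heads of 5-d-old adults, and 235 libraries of 79 conditions were used. The 33 tra2 XX, 33 XX and 33 XY libraries of the 11 3L lines came from flies heterozygous for a DrosDel deficiency on 3L, written Df(3L)/+, and the 57 tra2 XX and 56 XX libraries of the 19 X lines came from Df(1)/w1118 flies. The tra2 XX flies, XX females transformed into somatic males, carried Df(2R)trix over tra2B on the second chromosome besides any deficiency on 3L or X. The w1118 tra2 XY flies carried Df(2R)trix over tra2B too. Flies without a deficiency on 3L or X were OreR XX (w+/w+) and XY (w+/Y), with 3 libraries each. Of w1118, the parental strain of the DrosDel stocks, there were tra2 XX, tra2 XY, XX and XY flies, also with 3 libraries each. The w+/w1118 heterozygotes had 3 tra2 XX and 2 XX libraries. The XX and XY flies of the 3L lines came from w1118 mothers with Df(3L) over the TM3 balancer and w1118/Y fathers, and the XX flies of the X lines had mothers with Df(1) over the FM7h balancer. Each deficiency was 1 stock, and each library was a pool of heads, so a line or a set of alleles was always read together with the rest of its chromosomes. The series is described as biological triplicates. The labels name neither a batch nor a date, and p-values measure only the spread between these pools.

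A library held 667146 to 18679735 reads on genes, with a median of 7611689. Libraries of tra2 XX flies were shallower, with medians of 5631335 reads in tra2 XX of the 3L lines, against 9123340 in XX and 9220883 in XY. Photoreceptor and antennal marker genes were present in all groups, and accessory gland genes summed to at most 15.2 normalized reads in any library. Egg chorion genes summed to 491 in 1 tra2 XX library of Df(1)ED14021/+, against a median of 7.79 in tra2 XX of the X lines. The normalized read count is the deposited read count divided by 1 size factor per library. The median over members of the mean normalized read count was 4.54, and 73 of 90 members had a mean under 10. The filter on low counts therefore left 52 members for tests in the 3L lines, 44 in the X lines, 46 in w1118 and 41 in OreR against w1118. The 38 members not tested in the 3L lines had means of 1.03 to 3.97. The lowest mean among tested members was 1.08 to 4.32 and the highest among untested ones 3.97 to 6.64 over the 4 fits, so the tested and untested members overlapped in their means. The filter asks for enough reads in a minimum number of libraries, and a gene that is high in 1 group alone can pass it through that group. Called members that would not have passed without the group where they were higher are counted beside each contrast, with their test in a fit that used no filter.

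Levels between genes were compared per transcript length as FPKM, in the 6 w1118 XX and XY libraries. Orco was the highest member at 22.1 ± 7.66 FPKM (SD, n = 6), and only Or43b (13.3 ± 2.36) and Ir76a (10.8 ± 1.75) also exceeded 10 FPKM. The 90 members had a median of 0.523 FPKM, against 3.39 FPKM over all 17062 genes of that table, and 64 of them were under 1 FPKM. The family medians were 0.648 (Or), 0.449 (Gr) and 0.468 FPKM (Ir).

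Neurons with a tuning odorant receptor are known to make Orco as well. Or43b, an antennal receptor, was next in its family, followed by Or63a (4.20 ± 1.20 FPKM), known as a larval receptor, and the antennal receptors Or59b (1.94 ± 1.01) and Or22b (1.87 ± 0.559). A part of Or43b (40.7% of its exon length) overlaps the gene Cul1, so its level is uncertain. Among Ir genes, the amine receptor Ir76a was followed by Ir85a (7.03 ± 1.48), the moist air receptor Ir68a (3.68 ± 0.939), Ir62a (3.68 ± 1.14) and Ir51b (3.16 ± 0.905). Ir85a had a mean of only 2.89 normalized reads, 10.9% of its exon length overlaps Pif1A or Pif1B, and its FPKM is therefore read with caution. The coreceptors Ir76b (2.87 ± 0.625), Ir25a (2.42 ± 0.377) and the tuning receptors Ir68a, Ir62a and Ir51b overlapped in their ranges. The gustatory genes were led by Gr39a (4.77 ± 1.43), then the fructose receptor Gr43a (2.44 ± 0.773), Gr28b (1.85 ± 0.544), a receptor with roles in warmth and light sensing, and Gr10a (0.903 ± 0.288). Or59b and Or22b, Gr43a and Gr28b, and Ir68a, Ir62a and Ir51b differed from their neighbours in these orders by less than 1 SD, whereas Orco and Or43b, whose ranges overlapped, lay above the range of every other Or member and Ir76a above that of every other Ir member. In BDGP6 all exon sequence of Gr10a is shared with Or10a (100%). The tables give these genes separate counts, and how shared reads were assigned is not given in the sources used here, so the values of both are uncertain throughout.

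**Figure D1:**
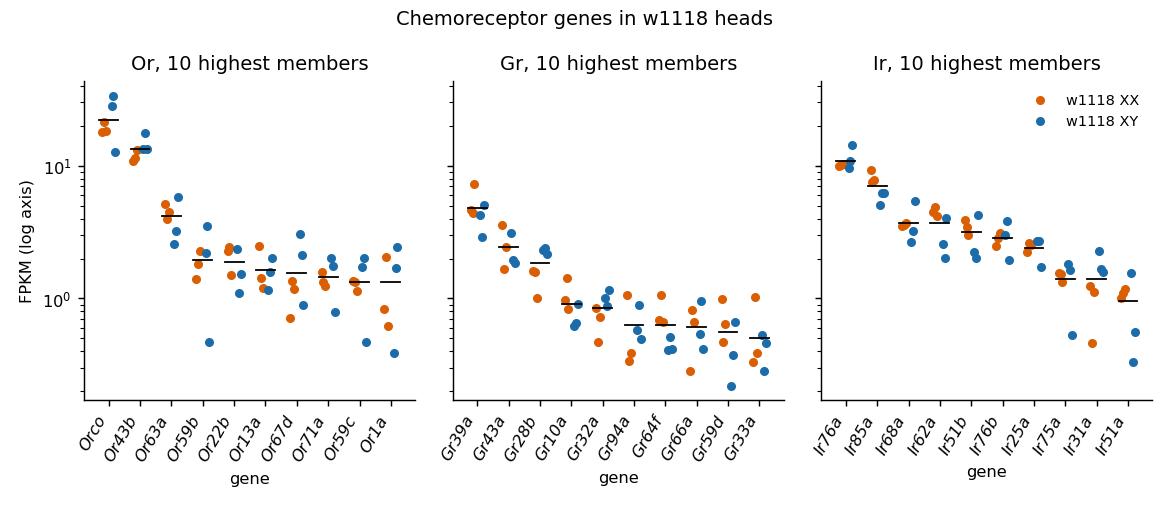
FPKM (log axis) of the 10 highest members of each family in w1118 heads, with 1 point per XX library (orange) and XY library (blue), n = 3 each, and a bar at the mean of the 6 libraries. Orco, Or43b and Ir76a are the members above 10 FPKM, and most Gr members lie under 1 FPKM.

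Orco varied from 52.4 to 723 normalized reads over the 235 libraries with a median of 361, a 13.8-fold range. In 9 libraries it was under 100, and the lowest value rested on 39 reads. Replicates of 1 condition often differed as well. The highest Orco level over the lowest within a condition had a median of 1.78 and a maximum of 8.91, and it was above 2 in 29 of 79 conditions. The groups overlapped broadly, with lowest, median and highest levels of 83.2, 358 and 676 in tra2 XX, 71.5, 375 and 642 in XX, and 154, 439 and 723 in XY of the 3L lines. The X lines had 79.7, 389 and 711 in tra2 XX and 52.4, 279 and 576 in XX.

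The other odorant receptors moved with Orco from library to library. The normalized reads of the other 41 Or members, summed, correlated with Orco in 96 tra2 XX libraries (Pearson's r = 0.911, Spearman's rho = 0.901), in 97 XX libraries (r = 0.944, rho = 0.942) and in 39 XY libraries (r = 0.888, rho = 0.898). Each had a permutation p of 1e-05, the smallest that 100000 permutations can give, and 1e-05 after adjustment over 6 relations. These libraries include replicates of the same lines, which are not independent, so the p-values describe this set of libraries only. Without the 2 libraries farthest from the median sum, r was 0.901, 0.934 and 0.87 in these 3 groups. Within the 3L lines alone r was 0.926, 0.904 and 0.921, and within the X lines 0.911 in tra2 XX and 0.96 in XX. Both measures carry the same size factor, and in a pool of heads fewer cells of a type and less RNA per cell cannot be told apart. The remaining 3 relations set Orco against the sum of 10 genes of antennal support cells, which surround the neurons. Obp19d, with a mean of 15320 normalized reads against at most 1722 for the others, made up most of this sum. The relations are thus mostly those of Orco with this 1 gene. Here r was 0.721 in tra2 XX (rho = 0.714, adjusted p = 1e-05), 0.233 in XX (rho = 0.259, adjusted p = 0.02 for r) and 0.657 in XY (rho = 0.675, adjusted p = 1e-05). Without the 2 farthest libraries r was 0.735, 0.216 and 0.764. The weak relation in XX was 0.52 within the 3L lines and 0.0896 within the X lines.

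Single members differed in how far they followed Orco. Of 12 members with a mean of at least 15, Or59b (r = 0.874 in tra2 XX, 0.895 in XX, 0.912 in XY), the acid coreceptor Ir8a (0.842, 0.904 and 0.914) and Ir75a (0.86, 0.897 and 0.784) followed it closely. Ir76b gave 0.708, 0.613 and 0.725. Ir76a, with the highest mean read count of the 12, gave only 0.2, 0.214 and 0.269, and Or63a 0.097, 0.324 and 0.0574. Or43b (0.217, 0.446 and 0.157) and Ir68a (0.0663, 0.311 and 0.152) were similarly weak. Ir62a (-0.134, 0.579 and 0.14), Gr39a (-0.256, 0.572 and 0.0977) and Ir51b (-0.0344, 0.576 and -0.255) had larger values in XX than in tra2 XX or XY. These coefficients are a description of the members over 96, 97 and 39 libraries that share depth and scaling, and Ir75a was chosen after its values were seen.

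The first question put to the 3L lines was how XX and XY heads differ. A minority of members passed the threshold. Of 52 members tested, 14 fell (26.9%) and 1 rose (1.92%) in XX, at an adjusted p under 0.05 from edgeR's quasi-likelihood test over 9879 genes. Among all genes tested 31.8% were lower and 24.6% were higher, so the share that fell was close to the background and the share that rose was under it. At the low counts of members a difference is harder to call. Here and in later contrasts, a share under the background therefore does not show that members differed less. The median log2 fold change of XX over XY was -0.205 for members and -0.0436 for all genes. By family, 7 of 26 Or, 2 of 9 Gr and 5 of 17 Ir members fell, and Gr43a was the single member that rose. By chromosome, 6 of 23 members on the second, 8 of 22 on the third and 0 of 7 on the X fell. Leaving out the first or the second replicate of every condition left 8 and 7 members lower. Of the falls, 3 (Or47b, Or35a and Ir100a) would not have passed the filter without the XY libraries, and Gr43a would not have passed it without XX. With no filter each of these 4 calls was made as well, at an adjusted p of up to 0.0351. Here and in later contrasts, a difference is partly built in for a gene that passes this way, so its values are a description.

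Or47b, which would not have passed the filter without XY, had the largest difference of the members called. It is the receptor of trichoid antennal neurons that respond to fatty-acid-type odours of flies and promote male courtship. Its lowest, median and highest normalized read counts were 0, 5.21 and 12.0 in XX, against 0.961, 13.2 and 28.1 in XY. The groups overlapped, but the XX mean was lower in 11 of 11 lines, and the log2 fold change was -1.38 (SE 0.20, edgeR adjusted p = 2.73e-09). In tra2 XX, Or47b had 0, 3.85 and 10.8, near XX and under XY, with -1.74 (SE 0.22, adjusted p = 3.1e-11) against XY. Or67d, the receptor for the male pheromone cis-vaccenyl acetate, had 0, 3.59 and 13.7 in tra2 XX, 0, 7.88 and 21.6 in XX, and 3.21, 10.8 and 21.2 in XY. It was lower in XX, at -0.51 on the log2 scale (SE 0.18, adjusted p = 0.0101) and in 7 of 11 lines. The call was lost in 4 alternatives, where the adjusted p was up to 0.216. These were the fits with the antennal marker level or the Orco level as a term, without Df(3L)ED225/+ and without the first replicates. Of the 9 genes listed for pheromones and courtship, 5 were tested and Or67d, Or47b and Gr33a fell.

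Receptors of coeloconic neurons followed in size. Coeloconic sensilla are short pegs of the antenna that house most antennal Ir neurons. Ir31a had 0, 6.75 and 11.4 in XX, against 5.34, 12.6 and 37.9 in XY, and was lower in 11 of 11 lines, with -1.15 on the log2 scale (SE 0.16, adjusted p = 8.24e-10). In tra2 XX it had 1.78, 8.51 and 28.5, between XX and XY. Or35a, the odorant receptor found in a coeloconic neuron, had 0, 2.98 and 7.96 in XX, against 0, 5.90 and 12.1 in XY, and was lower in 11 of 11 lines with -0.96 (SE 0.23, adjusted p = 0.000277). Like Or47b, it would not have passed the filter without XY, so its values are a description. Of 17 antennal Ir genes 12 were tested, and Ir31a, Ir68a, Ir76a and Ir76b fell, with a list median of -0.283. Ir68a (-0.42, SE 0.09, adjusted p = 8.49e-05) and Ir76b (-0.34, SE 0.08, adjusted p = 0.000403) were lower in 10 of 11 lines each. Ir76b had 28.3, 56.6 and 88.2 in XX, against 22.1, 78.6 and 96.9 in XY, so that the medians differed and the ranges did not separate.

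Orco itself gave -0.27 on the log2 scale (SE 0.13, adjusted p = 0.0777) and was lower in 9 of 11 lines, which did not pass the threshold. The other coreceptors were Ir25a with -0.21 (adjusted p = 0.0522), Ir8a with -0.29 (adjusted p = 0.193) and Ir93a, a coreceptor for temperature and humidity, with -0.14 (adjusted p = 0.602). Ir76b was the only coreceptor of 5 that passed. Of 37 adult antennal Or genes 18 were tested, and Or35a, Or47b, Or67d and Or85f fell. Of 7 maxillary palp Or genes 4 were tested, and Or42a (-0.53, SE 0.20, adjusted p = 0.0163) and Or85e (-0.47, SE 0.19, adjusted p = 0.0312) fell. Of 13 larval Or genes 3 were tested, and Or63a fell (-0.32, SE 0.11, adjusted p = 0.00915). The calls of Or85e and Or85f (-0.37, adjusted p = 0.0255) were lost in 11 and 7 of the alternatives. That of Or42a was lost in 3, without Df(3L)ED4421/+ and without the first or the second replicates (adjusted p up to 0.0929), and that of Or63a without the first replicates (adjusted p = 0.119).

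In the taste family, Gr33a and Gr43a went opposite ways. Gr33a, needed for bitter taste and for male avoidance of courting males, had 0, 3.35 and 11.9 in XX, against 0.695, 5.90 and 17.2 in XY, with -0.61 (SE 0.19, adjusted p = 0.00483) and 9 of 11 lines lower. Gr28b fell as well (-0.41, SE 0.13, adjusted p = 0.00451) and was lower in 11 of 11 lines. The call of Gr33a was lost without the second or the third replicates (adjusted p up to 0.075) and that of Gr28b without the second (adjusted p = 0.0869). The fructose receptor Gr43a had 0.744, 4.23 and 11.6 in XX, against 0, 2.97 and 6.61 in XY. It was higher in 9 of 11 lines by 0.63 (SE 0.23, adjusted p = 0.0179). That call was lost without Df(3L)ED4978/+ and without the third replicates, where the adjusted p was up to 0.123. A further Ir gene, Ir100a, fell by 0.52 on the log2 scale (adjusted p = 0.0205) and Ir76a by 0.20 (adjusted p = 0.0159). Ir76a was lower in 9 of 11 lines, and its call was lost in 4 alternatives. That of Ir100a was lost without Df(3L)ED4475/+ and without the third replicates (adjusted p up to 0.0812).

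**Figure D2:**
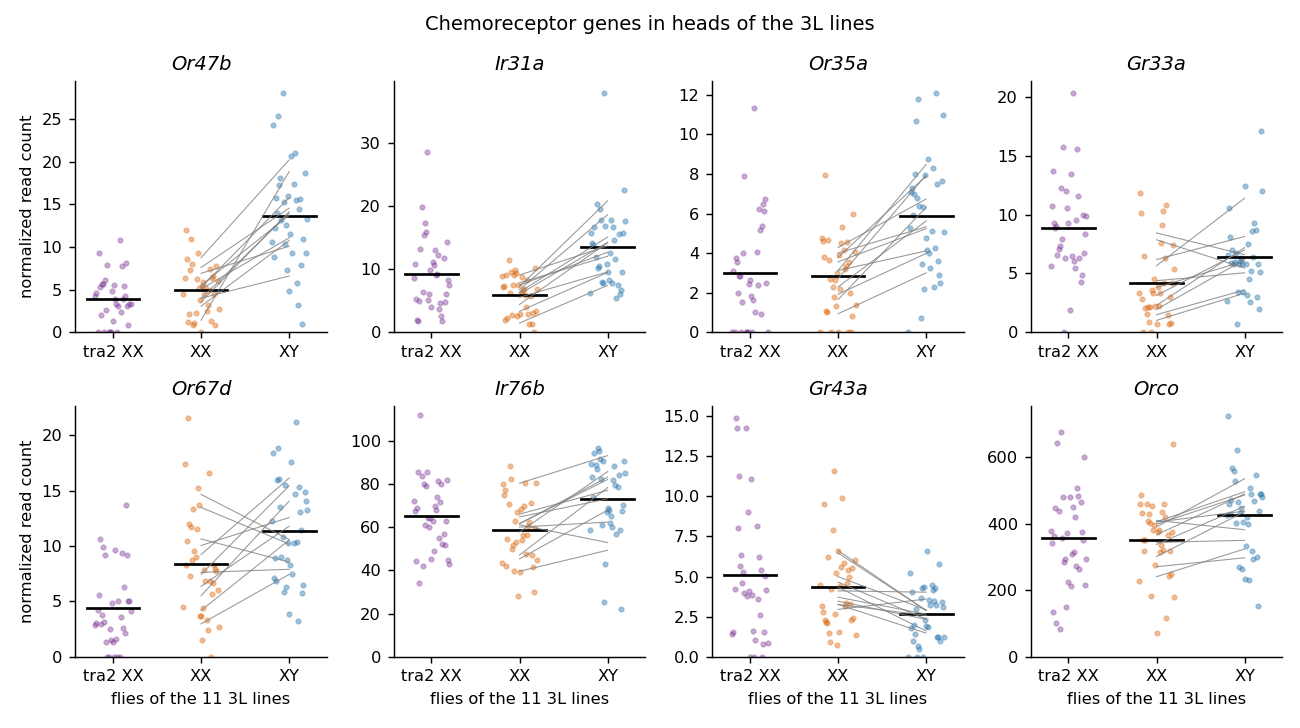
Normalized read counts of 8 members in the 3L lines, with 1 point per library of tra2 XX, XX and XY (n = 33 each), black bars at the group means, and grey lines that join the XX and XY means of each of the 11 lines. For Or47b, Ir31a and Or35a all lines are lower in XX, whereas for Orco 9 of 11 are. Or47b and Or35a would not have passed the filter without XY, and Gr43a not without XX.

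Marker genes of other cells of the head also differed in this contrast. Of 10 antennal support cell genes 7 fell in XX of the 3L lines and 0 rose, with a list median of -0.477. The odorant-binding protein genes lush (-0.48, SE 0.17, adjusted p = 0.0144), Obp83a (-0.58, SE 0.23, adjusted p = 0.0227) and Obp83b (-0.72, SE 0.23, adjusted p = 0.00437) were among them. The summed list, made up mostly of Obp19d, had 11030, 18930 and 27940 normalized reads as lowest, median and highest in XX, against 12850, 22430 and 74120 in XY. No gene of the list was at 0 throughout. The 2 Johnston organ genes, nan and iav, both fell, and so did 5 of 5 photoreceptor genes, whereas 5 of 6 fat body genes rose with a list median of 6.91. Fat body sums were 238300 to 1887000 in XX and 616 to 191000 in XY. This list holds Yp1, Yp2 and Yp3, which the paper describes as regulated downstream of tra2, so it does not measure the amount of fat body. With the antennal marker level as a term in the fit, Or47b gave -0.99 (adjusted p = 5.49e-07), Ir31a -1.01 (adjusted p = 1.72e-08) and Or35a -0.54 (adjusted p = 0.0314), and 11 members were lower, 10 of them among the 14 above, and 11 higher. That fit tested 62 members, and of the 52 tested without the term 10 were lower and 9 higher. With the Orco level as a term, added after seeing the data, Or47b gave -1.14 (adjusted p = 4.09e-08), Ir31a -1.02 (adjusted p = 1.66e-08) and Or35a -0.64 (adjusted p = 0.00813), with 12 members lower and 8 higher of 59 tested, and 11 lower and 7 higher of the 51 other members tested without the term. The calls of Or67d, Ir76a, Or85e and Or85f were lost with the antennal term, and those of Or67d, Ir76a and Or85e with the Orco term. The part of these markers in the calls was not tested further.

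Of 12 other genes of chemosensory neurons, none of them members, 10 were tested. The pheromone coreceptor gene Snmp1, the transcription factor gene pdm3, the pheromone channel genes ppk23 and ppk25, and Amt, an ammonium transporter gene, fell in XX, and the transcription factor gene lz rose. Their median was -0.312. Snmp1 and Amt are also counted among the antennal support cell genes.

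The same sex contrast in strains without a deficiency had only 3 libraries per group. In w1118, 1 of 46 members was higher in XX and 0 were lower, beside 3.22% higher and 3.26% lower of all genes. At an unadjusted p under 0.05 there were 4 higher and 2 lower. The called gene was Ir40a, a receptor of dry air, which lies outside the rule for named genes and was chosen after its values were seen. It had 8.94, 8.87 and 13.6 in XX, against 4.6, 3.44 and 3.43 in XY, without overlap, and 1.41 on the log2 scale (SE 0.37, edgeR adjusted p = 0.043). That call was lost when any single XX or XY library was left out, with 0 members higher. In OreR it had 5.66, 15.4 and 9.48 in XX, against 5.10, 11.1 and 10.1 in XY. In OreR 0 of 41 members passed in either direction, with 0 higher and 1 lower at an unadjusted p under 0.05 and 0 by DESeq2, beside 6.86% higher and 3.73% lower of all genes.

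Or47b in w1118 had 5.18, 4.44 and 5.91 in XX, against 8.62, 10.3 and 5.72 in XY, and in OreR 0, 2.43 and 3.95 in XX, against 3.40, 7.83 and 5.26 in XY. The XX means were lower in both strains and the groups overlapped. In 1 fit, XX over XY for Or47b was -1.37 in the 3L lines and -0.93 in w1118 and OreR, a difference of -0.44 (SE 0.52, edgeR adjusted p = 0.861). Over 67 members tested, 0 passed for this difference, beside 0.202% of all genes, and 4 had an unadjusted p under 0.05. This test was added after seeing the data. Ir31a in w1118 had 11.8, 4.44 and 11.2 in XX, against 20.7, 18.1 and 14.9 in XY, without overlap, and an adjusted p of 0.17. In flies that both carried the tra2 alleles, w1118 tra2 XX over tra2 XY, 0 of 46 members passed, beside 0.152% higher and 0.101% lower of all genes. There were 5 higher and 0 lower at an unadjusted p under 0.05, and DESeq2 called 1.

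Transformed XX heads were compared with XX heads in both sets of lines, which share no library. In the 3L lines 8 of 52 members rose (15.4%) and 17 fell (32.7%) in tra2 XX, beside 36.2% higher and 36.2% lower of all genes. Of the 44 members tested in the X lines 11 rose (25%) and 10 fell (22.7%), beside 27.6% higher and 36.8% lower. The median log2 fold change of members was -0.166 in the 3L lines and 0.0487 in the X lines, and of all genes -0.00288 and -0.0463. Both sets called 15 of the 44 members tested in both (34.1%), beside 50.6% of 9578 genes. Of the 15, 14 had the same direction (93.3%), 6 higher and 8 lower, beside 94.4% of the genes called in both, so neither share of members was above that of all genes. Or59c, a maxillary palp receptor, was the exception, with 0.36 in the 3L lines and -0.28 in the X lines. Its call was lost in 5 alternatives in the 3L lines and in 18 in the X lines. In the X lines 6 of the 11 rises, among them Or82a, Or85e, Or85f, Ir31a and Ir60a, would not have passed the filter without the tra2 XX libraries, and 4 of the 10 falls, Or22a, Or45a, Gr10a and Ir40a, not without XX. The same held for the rise of Ir60a in the 3L lines. With no filter each of these calls was made as well, at an adjusted p of up to 0.0481. Ir60a, Or82a, Ir31a, Or22a, Or45a, Gr10a and Ir40a are among the 14 with the same direction. For them the direction in the X lines is partly built in, so the agreement between the sets is a description. Without the library high in egg chorion genes, 13 members were higher and 10 lower in the X lines.

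The members that fell in both sets were led by Or63a. It had 0, 7.96 and 24.2 in tra2 XX, against 12.2, 27.7 and 59.1 in XX of the 3L lines, and 1.48, 11.6 and 27.2 in tra2 XX, against 0, 28.4 and 83.9 in XX of the X lines. The log2 fold change was -1.91 (SE 0.14, adjusted p = 4.64e-22) in the 3L lines and -1.42 (SE 0.13, adjusted p = 1.23e-16) in the X lines, and tra2 XX was lower in 11 of 11 and 18 of 19 lines. In w1118 without a deficiency on 3L or X, Or63a had 12.9, 22.8 and 22.2 in tra2 XX, against 51.8, 41.4 and 53.2 in XX, without overlap. Or45a, another larval receptor, fell by 1.18 on the log2 scale in the 3L lines (adjusted p = 6.45e-06) and by 0.92 in the X lines (adjusted p = 0.000642). The neighbouring antennal receptors Or22a and Or22b, which detect fruit esters, fell together. Or22a had 0, 3.25 and 11.8 in tra2 XX, against 0, 8.02 and 19.6 in XX of the 3L lines. Its log2 fold changes were -1.39 (adjusted p = 4.13e-08) and -0.67 (adjusted p = 0.00427) in the 3L and X lines, and those of Or22b -1.08 (adjusted p = 3.09e-05) and -0.81 (adjusted p = 0.00073). In the X lines Or45a and Or22a passed the filter only through XX, so their values there are a description.

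Ir62a fell to 0, 13.5 and 32.7 in tra2 XX, against 6.82, 35 and 60.4 in XX of the 3L lines, with -1.30 (SE 0.16, adjusted p = 7.38e-12). In the X lines it had 4.35, 17.2 and 51.4 in tra2 XX, against 0, 35.8 and 87.5 in XX, with -0.73 (SE 0.19, adjusted p = 0.000376). The call in the X lines was lost without the first replicates. Gr10a (-1.02 and -0.52), Ir51b (-0.79 and -0.38) and Ir40a (-0.44 and -0.45) made up the rest of the 8, in the 3L and X lines. The call of Gr10a in the X lines was lost with a replicate block and without the first replicates (adjusted p up to 0.741), and its reads share exons with Or10a. That of Ir51b in the X lines was lost without the third replicates (adjusted p = 0.101).

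The members that rose in both sets included the bitter receptors Gr33a and Gr66a. Gr33a had 0, 8.89 and 20.4 in tra2 XX, against 0, 3.35 and 11.9 in XX of the 3L lines, with 1.16 (SE 0.20, adjusted p = 2.67e-07), and the X lines gave 0.56 (SE 0.13, adjusted p = 0.000119). Gr66a, which marks bitter neurons, had 3.70, 9.92 and 23.1 in tra2 XX, against 2.12, 7.27 and 12.1 in XX of the 3L lines. In the X lines it had 3.15, 13.5 and 23.9 in tra2 XX, against 0, 6.61 and 18.9 in XX. Its log2 fold changes were 0.70 (adjusted p = 2.2e-06) and 0.86 (adjusted p = 1.07e-08). Of 5 bitter Gr genes 4 were tested, and these 2 rose in both sets. Gr39a, also on the bitter list, fell in the 3L lines (-0.74, SE 0.15, adjusted p = 1.2e-05) and gave -0.09 in the X lines. The summed list had a median of 45.0 in tra2 XX, against 51.4 in XX of the 3L lines, and 54.8 in tra2 XX, against 50.9 in XX of the X lines.

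Ir60a had 0.939, 8.08 and 39.5 in tra2 XX, against 0, 3.32 and 10.4 in XX of the 3L lines, and was higher in 11 of 11 lines, with 1.10 (adjusted p = 7.74e-07). In the X lines it gave 0.70 (adjusted p = 0.000158) and was higher in 15 of 19. Or82a, the antennal receptor for geranyl acetate, rose by 0.52 (adjusted p = 0.0239) and 0.82 (adjusted p = 2.88e-05), and Ir31a by 0.58 (adjusted p = 0.00231) and 0.53 (adjusted p = 0.000344), in the 3L and X lines. Ir60a passed the filter only through tra2 XX in both sets, and Or82a and Ir31a did so in the X lines. Those values are a description. Ir25a made up the sixth, with 0.28 and 0.17. Its call was lost in 2 alternatives in the 3L lines, without Df(3L)ED4421/+ and without the first replicates (adjusted p up to 0.5), and in 5 in the X lines, among them both covariate terms (adjusted p up to 0.33). That of Ir31a in the 3L lines was lost without the first replicates (adjusted p = 0.094). The call of Or82a in the 3L lines was lost in 6 alternatives, those without Df(3L)ED210/+, Df(3L)ED211/+, Df(3L)ED217/+ or Df(3L)ED225/+ and without the second or the third replicates, with an adjusted p of up to 0.603. The sweet receptor Gr64a did not pass the filter in these fits.

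Orco differed less clearly. It gave 0.06 (adjusted p = 0.69) in the 3L lines and 0.41 (SE 0.13, adjusted p = 0.00493) in the X lines, where the call was lost without the second or the third replicates (adjusted p up to 0.146). Maxillary palp receptor Or85e (0.68) and antennal receptor Or85f (0.67) rose in the X lines and were higher in 19 of 19 lines each. Both passed the filter there only through tra2 XX, so these values are a description. Ir76a fell there (-0.36, SE 0.06, adjusted p = 2.26e-08) and Ir76b rose (0.32, SE 0.07, adjusted p = 3.94e-05).

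The tra2 XX over XX effect was also tested for a difference between the 3L and X lines in 1 fit, a test added after seeing the data. It passed for 10 members, beside 42.1% of 10009 genes tested. The 10 were Or10a, Or13a, Or59c, Or63a, Or67d, Or92a, Gr33a, Gr39a, Gr64f and Ir76a, of which Or10a shares its exons with Gr10a. Or67d had -0.74 in the 3L lines and 0.23 in the X lines, and Gr39a -0.75 and -0.09. The 3L and X lines differed in the crosses, the arm of the deficiency and the stocks, and their parts in these differences cannot be told apart. None of the 21 members on 2R lay in the segment of low expression around tra2, where the 6 neighbours of tra2 had a median of -0.852 in the 3L lines and -0.899 in the X lines.

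**Figure D3:**
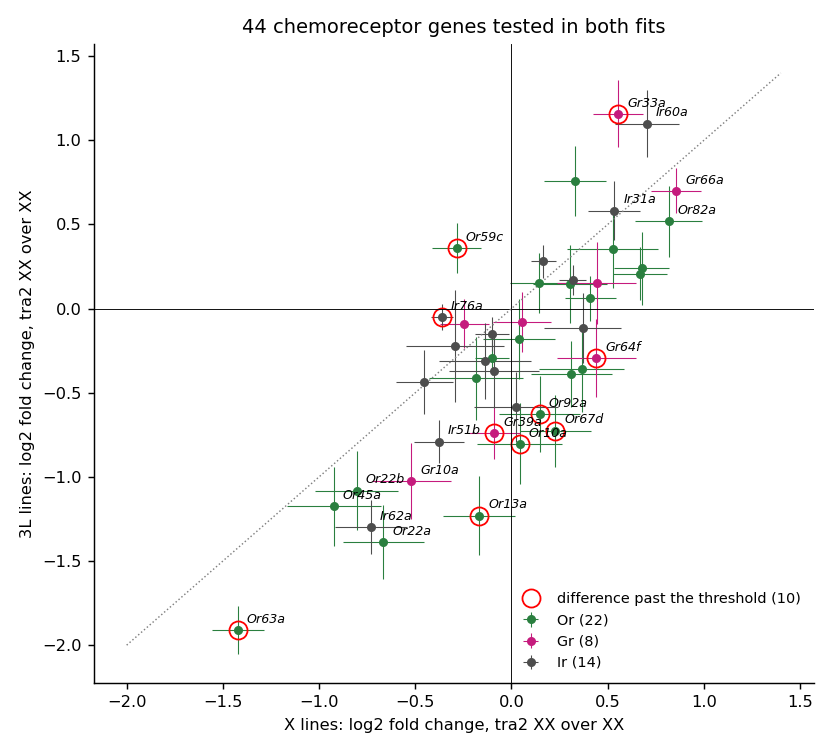
Log2 fold change of tra2 XX over XX in the 3L lines (vertical axis) against that in the X lines (horizontal axis) for the 44 members tested in both, coloured by family, with SE bars. Red circles mark the 10 members whose difference passed, and the dotted line is equality. Or63a is the lowest in both, at -1.91 in the 3L lines and -1.42 in the X lines.

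Marker genes of other cells moved in this contrast too. Of 10 antennal support cell genes 1 rose and 1 fell in tra2 XX of the 3L lines, and 3 rose and 1 fell in the X lines, with Obp83b at 0.72 (adjusted p = 0.00542). Their sums, made up mostly of Obp19d, which rose in both sets, were 13130 to 45790 in tra2 XX, against 11030 to 27940 in XX of the 3L lines, and 8386 to 31950 in tra2 XX, against 9739 to 34710 in XX of the X lines. Their level as a term in the fit was the mean of their log2 levels, not the sum. With this term, Or63a gave -1.93 (adjusted p = 2.92e-22) and Gr33a 1.14 (adjusted p = 6.17e-07) in the 3L lines. Of 5 photoreceptor genes 4 rose and 1 fell in the 3L lines, and 3 rose and 1 fell in the X lines. Photoreceptor sums were 194000 to 299500 in tra2 XX, against 116500 to 229800 in XX of the 3L lines, and 68470 to 316000 in tra2 XX, against 116700 to 325800 in XX of the X lines. Of 6 fat body genes 5 fell and 1 rose in both sets, with list medians of -6.84 and -5.98 in the 3L and X lines. Of the 10 tested other genes of chemosensory neurons, 2 rose and 5 fell in the 3L lines, and 2 rose and 1 fell in the X lines. The channel gene ppk29 (1.35 and 1.59) and nompA (1.28 and 1.26), a gene of sensory support cells, rose in both, and Snmp2 (-0.27 and -0.45) fell in both. The Johnston organ gene nan fell in the 3L lines. The part of these markers in the members' calls was not tested.

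Both tra2 XX and XY flies are somatic males, and they were compared in the 3L lines. This contrast shares its libraries with the previous ones. In tra2 XX 6 of 52 members rose (11.5%) and 27 fell (51.9%), beside 39.0% higher and 38.5% lower of all genes. The median log2 fold change was -0.453 for members and -0.000929 for all genes. Of 18 adult antennal Or genes tested 11 fell and 1 rose, and of 12 antennal Ir genes 6 fell and 0 rose, beside 4 falls and 1 rise among 10 antennal support cell genes. The 2 Johnston organ genes, nan (-0.99) and iav (-0.75), both fell, 6 of 10 other genes of chemosensory neurons fell and 2 rose, and 3 of 5 photoreceptor genes rose and 1 fell. In w1118 without a deficiency on 3L or X (n = 3 each) these groups were not tested, and some sums went the other way. Adult antennal Or sums were 246 to 300 in tra2 XX, against 132 to 237 in XY. Antennal Ir sums were 376 to 395, against 293 to 325, and coreceptor sums 615 to 700, against 233 to 493.5. Larval Or sums overlapped, at 19.4 to 41.3, against 33.9 to 85.8. Of the members' calls, 5 of the 27 falls, Or47b among them, would not have passed the filter without XY and 2 of the 6 rises, Gr43a and Ir60a, not without tra2 XX. With no filter each of these calls was made as well, at an adjusted p of up to 0.0338. Or63a (-2.23, adjusted p = 7.55e-27), Or22a (-1.74, adjusted p = 5.61e-12), Or47b (-1.74), Or13a (-1.44, adjusted p = 2.29e-08, named after its values were seen) and Ir62a (-1.39, adjusted p = 2.53e-13) had the largest falls, and Or67d gave -1.24 (SE 0.20, adjusted p = 7.25e-08). These were lower in 11 of 11 lines each, except Or13a with 10 of 11. Gr66a (0.84, adjusted p = 1.69e-08), Gr43a (0.76, adjusted p = 0.00455), Ir60a (0.75, adjusted p = 0.000223) and Gr33a (0.55, adjusted p = 0.0058) rose, and the call of Gr33a was lost without the first replicates (adjusted p = 0.184). For Or47b and Or67d the median of tra2 XX was under those of XX and XY, while for Gr33a and Gr66a it stood above both.

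OreR is a wild-type strain, and w1118 is the white-eyed strain behind the deficiency lines. Of 41 members tested, 5 rose (12.2%) and 4 fell (9.76%) in OreR, beside 12.1% higher and 9.46% lower of all genes. The shares of members were near those of all genes, and 5 of the 9 log2 fold changes were above 2 in size. Of the 5 rises, Ir21a and Gr64a would not have passed the filter without the OreR libraries, and of the 4 falls, Ir31a and Or67d not without w1118. For a gene that passes this way a difference is partly built in, so their values are a description. With no filter the adjusted p was 0.00367 for Ir21a, 0.000762 for Gr64a, 0.00373 for Ir31a and 0.073 for Or67d. Of 9 called members 6 were Ir genes, beside 15 Ir genes among the 41 tested. Ir76a had 14.2, 17.0 and 19 in OreR XX and 18.7, 26.2 and 18.4 in OreR XY, against 90.4, 93.1 and 98.7 in w1118 XX and 85.6, 91.6 and 128 in w1118 XY. The strains did not overlap, and the log2 fold change was -2.35 (SE 0.14, edgeR adjusted p = 2.87e-07). Of the exon length of Ir76a, 14.1% overlaps CG14102. Ir68a had 6.60, 8.92 and 11.1 in OreR XX and 11.9, 6.91 and 11.6 in OreR XY, against 43.3, 45.8 and 48.4 in w1118 XX and 33.9, 36.5 and 65.8 in w1118 XY, again without overlap, with -2.25 (SE 0.22, adjusted p = 1.72e-05). Ir31a gave -2.10 (SE 0.44).

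The members higher in OreR were led by low genes. Ir21a, a receptor of cooling, had 0.943, 9.73 and 5.53 in OreR XX and 4.25, 5.53 and 8.64 in OreR XY, against 0.471, 1.48 and 1.18 in w1118 XX and 0, 0.860 and 0.572 in w1118 XY. Its log2 fold change was 2.92 (SE 0.55). Antisense RNA asRNA:CR43609 shares 79.4% of its exon length, and without strand the pair cannot be told apart. The sweet receptor Gr64a had 5.66, 9.73 and 15.8 in OreR XX and 6.80, 9.21 and 11.3 in OreR XY, against 1.41, 1.48 and 2.36 in w1118 XX and 0, 1.29 and 2.29 in w1118 XY. The strains did not overlap, with 2.74 (SE 0.41). Ir93a gave 1.19 (SE 0.29, adjusted p = 0.012). The smaller calls of Gr32a (0.79, adjusted p = 0.04) and Ir25a (0.43, adjusted p = 0.0351) were lost in 11 alternatives each and that of Or67d (-1.06, adjusted p = 0.0477) in 12. Leaving out OreR XY replicate 3 left 2 members higher. Of the antennal marker genes, 0 rose and 1, lush, fell (-1.19, adjusted p = 0.0398), with a list median of -0.509.

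**Figure D4:**
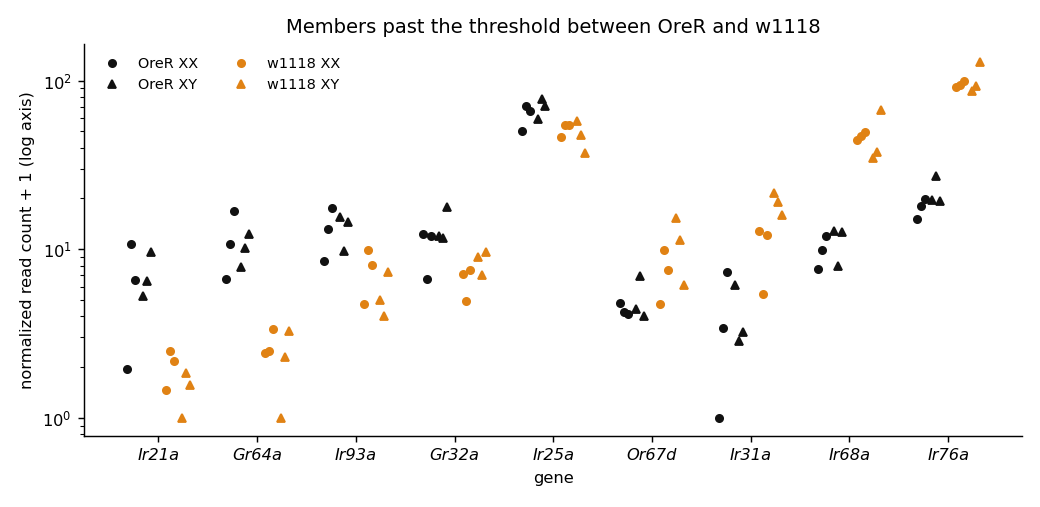
Normalized read count + 1 (log axis) of the 9 members past the threshold between OreR and w1118, with 1 point per library (circles XX, triangles XY, OreR black and left, w1118 orange and right, n = 3 each). Ir76a, Ir68a and Gr64a show no overlap between strains, while Gr32a and Or67d overlap.

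Few members were called as different between the deficiency lines, at low counts where a difference is harder to call. In the 3L lines 5 of 52 members (9.62%) differed between lines, beside 16.9% of all genes, and in the X lines 6 of 44 (13.6%), beside 59.1% of all genes. The 3L calls were Or63a (F = 5.27, adjusted p = 7.49e-05), Ir31a (F = 3.53, adjusted p = 0.00544), Ir76b (F = 2.95, adjusted p = 0.0217), Ir25a (adjusted p = 0.0368) and Gr33a (adjusted p = 0.0497). The X calls were Ir76a (F = 3.26, adjusted p = 0.00058), Or59c (F = 2.95, adjusted p = 0.00159), Or42b (F = 2.60, adjusted p = 0.00466), Or43b (adjusted p = 0.0124), Or45a (adjusted p = 0.0169) and Gr39a (adjusted p = 0.0324). Without the first, the second or the third replicates the counts were 1, 1 and 3 in the 3L lines. For the X lines they were 0 without the second and 1 without the third replicates.

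The members called between lines in either set were also set against the other lines of the same arm, 1 line at a time. They had been picked by the tests above in these same data, so their single-line values are a description. P-values were adjusted over all genes within each line only, and no share of all genes called is given. In Df(3L)ED4457/+, Ir25a (-0.46, SE 0.14, edgeR adjusted p = 0.0215), Ir76b (-0.45, SE 0.13, adjusted p = 0.0128) and Ir31a (-0.81, SE 0.24, adjusted p = 0.0231) were lower. Among the X lines, Df(1)ED6906/+ had Ir76a (-0.57, SE 0.13, adjusted p = 0.00246), Or42b (-1.51, SE 0.50, adjusted p = 0.0429) and Ir76b (-0.50, SE 0.16, adjusted p = 0.0403) lower. Ir76a had 29.7, 49.9 and 59.9 as lowest, median and highest in that line (n = 6), against 59.2, 86.8 and 135 in Df(1)ED7161/+, the line with the highest mean. Df(1)ED6878/+ had Or63a (-1.19, SE 0.35, adjusted p = 0.00787) and Gr39a (-1.06, SE 0.33, adjusted p = 0.0121) lower. Or45a was higher in Df(1)ED6630/+ (1.47, SE 0.39, adjusted p = 0.0061) and Or59c in Df(1)ED6727/+ (1.00, SE 0.26, adjusted p = 0.0425). None of these members lay in the deleted segment of the line named.

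Some members did lie in a deleted segment, judged by a low median over the 3 nearest genes on each side. These were Or2a in Df(1)ED409/+, Ir11a in Df(1)ED7153/+ and Df(1)ED7161/+, Or19a and Or19b in Df(1)ED7635/+, Or65a, Or65b and Or65c in Df(3L)ED211/+, and Or71a in Df(3L)ED217/+. With 5 neighbours on each side Or19a and Or19b were no longer placed in the segment, and the others were. Only Or65b and Or71a passed the filter. Or71a, a maxillary palp receptor, had 4.07, 7.99 and 9.24 in tra2 XX, 6.70, 0.730 and 4.66 in XX and 3.98, 1.91 and 0.827 in XY of Df(3L)ED217/+. The medians of all other lines were 8.33 (n = 93), 7.90 (n = 94) and 8.96 (n = 36). The log2 fold change against the other 3L lines was -1.0 (SE 0.28, edgeR adjusted p = 0.0359). That call was lost without the first, the second or the third replicates, with an adjusted p of up to 0.58. As a log2 ratio to all other libraries of the same groups, Or71a gave -1.07. Its neighbours before and after had medians of -0.87 and -0.91 on that ratio. A median under -0.6 was required of neighbours, so their low values were fixed by that rule. Or65b, a trichoid receptor, gave -0.92 (SE 0.42, adjusted p = 0.827) against the other 3L lines. On the ratio to all other libraries its neighbours gave -0.96 and -0.99, and Or65b gave -0.78. Its levels were 0, 2.71 and 0 in tra2 XX, 8.31, 2.38 and 3.33 in XX and 1.28, 1.56 and 1.73 in XY of Df(3L)ED211/+, against medians of 2.66, 3.30 and 3.70 in the other lines. The mean in Df(3L)ED211/+ was thus above that median in XX (4.67) and under it in tra2 XX (0.904) and XY (1.52). The difference of Or65b did not pass the threshold, and the reason was not tested.

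**Figure D5:**
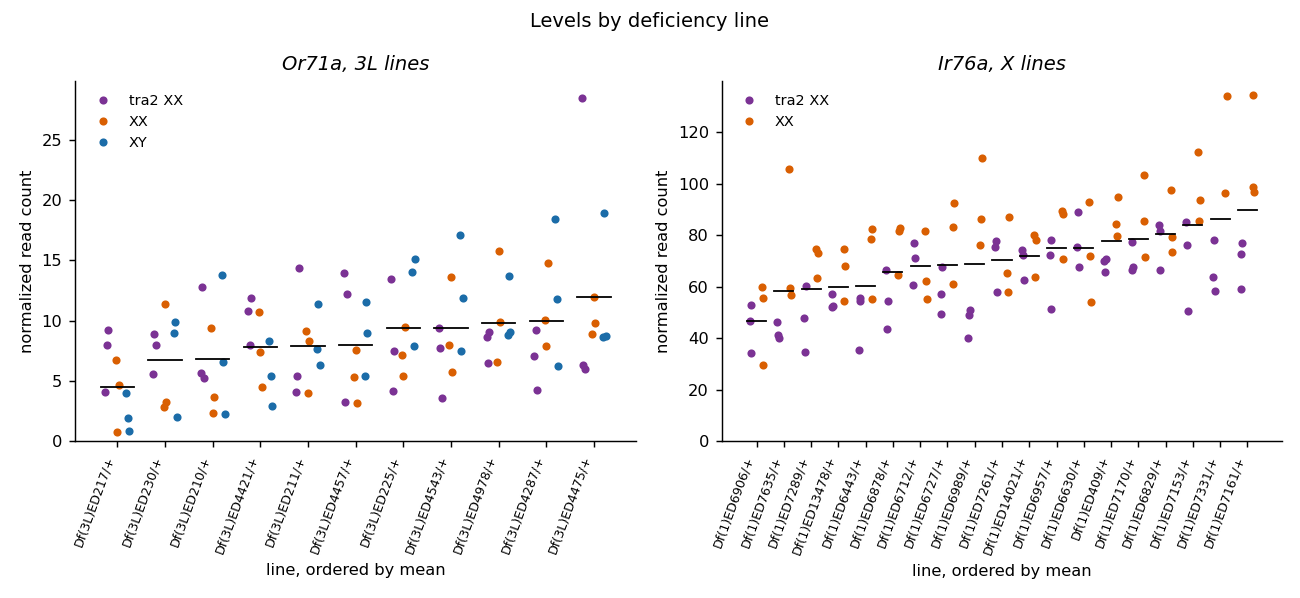
Normalized read counts by line, ordered by the mean, of Or71a in the 3L lines and Ir76a in the X lines, with 1 point per library coloured by group and a bar at the mean of the line. Df(3L)ED217/+, with 1 copy of Or71a, has the lowest mean of Or71a, and Df(1)ED6906/+ the lowest mean of Ir76a.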

How the data were processed

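Per the submitters' processing notes, reads were demultiplexed with CASAVA 1.8.2 and mapped with TopHat2 2.0.10, unique mappings only. The authors counted reads per gene with HTSeq 0.5.4p1 and deposited raw counts, without normalization, as single-end reads from an unstranded library. The authors also deposited a normalized signal, the count divided by 1 DESeq2 1.6.3 size factor per library, and raw counts over that factor differed from it by at most 3.73e-09. FPKM values were made by the authors with Cufflinks 2.1.1. Lines that name no gene held 7.12% of reads and spike-ins 1.19%, and both were left out. Of 249 libraries in the labels, 235 were used, and the tables that hold all 249 were not used here. The authors used FlyBase release 5.57, whereas symbols, arms and exon overlaps came from BDGP6 (16815 identifiers matched), so no coordinates are given.

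Counts were fitted with edgeR 4.0.16 (TMM, filterByExpr, quasi-likelihood test) in R 4.3.3 with limma 3.58.1, in 4 fits. These were 99 libraries of the 3L lines and 113 of the X lines, each with group and line as terms, 12 of w1118, and 12 of OreR and w1118. P-values were adjusted over all genes of a fit (Benjamini-Hochberg, threshold 0.05), and the SE was obtained as the size of the log2 fold change divided by the root of F. The fit was tested on simulated data. Other values were computed with Python 3.11.15, numpy 2.4.6, pandas 2.3.3 and scipy 1.17.1, and figures with matplotlib 3.10.9. A member was put in a one-copy segment where the median log2 ratio of its 3 nearest genes on each side was under -0.6.

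Named genes were the 5 coreceptors, the 5 highest of each family by FPKM in w1118 XX and XY, members past the threshold in XX over XY of the 3L lines (up to 12 by size per direction), in tra2 XX over XX of both sets of lines (up to 5 per direction), in OreR over w1118 (up to 4), the 3 with the largest F between lines in each fit, tested members in a one-copy segment, and lush, Obp83a and Obp83b. The members and lists were chosen with earlier results of these data known. Alternatives were RLE size factors, DESeq2 1.42.0, no filter, a mean over 6 normalized read counts, shallow libraries left out, a replicate block, each replicate, library or line left out, and the antennal marker level as a term. The Orco level as a term, the fit without the library with the most egg chorion reads and the tests of differences between effects were added after seeing the data. Permutation tests drew 100000 permutations.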

Additional observations from a re-analysis of the deposited data

Results flagged for a closer look

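For 10 members the tra2 XX over XX effect differed between the 3L and the X lines, by the edgeR test of the difference in 1 fit (log2 scale, 3L minus X, Benjamini-Hochberg adjusted over 10009 genes). The difference was negative for Or13a (-1.10, SE 0.32, adjusted p = 0.00375), Or67d (-0.97, SE 0.30, adjusted p = 0.0061), Or10a (-0.89, SE 0.34, adjusted p = 0.0278), Or92a (-0.80, SE 0.33, adjusted p = 0.0398), Gr64f (-0.80, SE 0.33, adjusted p = 0.0435), Gr39a (-0.66, SE 0.22, adjusted p = 0.00961) and Or63a (-0.52, SE 0.22, adjusted p = 0.0495). It was positive for Or59c (0.63, SE 0.20, adjusted p = 0.00744), Gr33a (0.62, SE 0.23, adjusted p = 0.0237) and Ir76a (0.28, SE 0.10, adjusted p = 0.0151). The effects in the 3L and X lines were -1.27 and -0.17 for Or13a, -0.85 and 0.04 for Or10a, -0.66 and 0.14 for Or92a, and -0.36 and 0.44 for Gr64f, which were named after their values were seen. Or10a shares its exons with Gr10a. Since 42.1% of all genes passed this test, the share of members was not above the background. No group held 4 to 10 samples, so samples far from the others of their group were not looked for.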

How the results depend on the processing

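Of 88 named results, 56 stayed past the threshold under every alternative that tested them. Some members of low counts were not tested in every alternative. For XX over XY in the 3L lines, Or35a had values in 21 alternatives, against 23 for Ir31a. For tra2 XX over XY, Ir100a had values in 14, against 22 for Ir62a. Of 2025 values of named results under alternatives, 1881 kept their direction and their side of the threshold, 144 lost the call and 0 reversed. Of 342 counts, 288 stayed within 1.5 times the main count. In the XX over XY contrast of the 3L lines, the 1 member higher became 2 with DESeq2, 2 with no filter on low counts, 0 with a mean over 6 normalized read counts, 0 with only the XX and XY libraries, 11 with the antennal marker level as a term and 8 with the Orco level as a term. Leaving out lines or replicates gave 0 to 2 higher and 7 to 18 lower. For tra2 XX over XY in the 3L lines, 27 lower became 42 with DESeq2 and 41 with no filter, and 6 higher became 10 with either covariate term. Leaving out gave 22 to 29 lower and 4 to 7 higher. For tra2 XX over XX, leaving out gave 11 to 19 lower and 6 to 11 higher in the 3L lines, and 7 to 11 lower and 7 to 17 higher in the X lines. For the X lines 11 higher became 22 with DESeq2 and 17 with no filter, and 10 lower became 16 with the Orco term. For OreR over w1118, 5 higher became 3 with no filter, and leaving out gave 2 to 6 higher and 3 to 6 lower. In w1118 the 1 member higher in XX became 0 with no filter and 0 with a replicate block, and was 0 to 1 when a library was left out. For w1118 tra2 XX over tra2 XY, 0 higher became 1 with DESeq2 and 0 to 1 with a library left out. Leaving out replicates gave 1 to 3 members for the 3L lines and 0 to 5 for the X lines in the differences between lines, and 0 for the 1 member in a one-copy segment. DESeq2 and the fits with no filter tested all 90 members, and those with a covariate term 59 or 62 in the 3L lines and 45 or 46 in the X lines. Among members also tested without the change, the 1 higher in XX was 1 with DESeq2, 1 with no filter, 9 with the antennal term and 7 with the Orco term. For tra2 XX over XY, 27 lower were 28 with DESeq2 and 27 with no filter and 6 higher were 9 with either term. For the X lines, 11 higher were 15 with DESeq2 and 11 with no filter, and 10 lower were 15 with the Orco term. The cause of the other changes was not tested. RLE in place of TMM shifted the median of members most for tra2 XX over XX in the 3L lines (-0.0383 on the log2 scale).

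Replicate numbers did not pair the libraries. Deviations of same-numbered XX and XY libraries of the 3L lines correlated from -0.439 to 0.302 (median 0.0282, 8 of 33 pairs over 0.1), and 14 of 33 correlated best with their own number. In w1118 XX and XY the correlation was 0.00809 to 0.227 and in OreR -0.417 to 0.241. With a replicate block, XX over XY in the 3L lines gave 1 member higher and 14 lower, tra2 XX over XX 9 and 19, tra2 XX over XY 7 and 30, and tra2 XX over XX in the X lines 13 and 9. OreR over w1118 gave 4 and 4 with the block, and the sex contrasts of OreR and w1118 gave 0 and 0.

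Depth limits these genes. Between 38 and 49 of 90 members were too low to test, and 0 reads of a member in a library do not show that it was absent.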

Other observations

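The w+/w1118 heterozygotes entered no comparison. Ir76a had 63.0, 61.4 and 57.5 normalized reads in their tra2 XX libraries and 58.0 and 54.4 in their XX libraries, values that lie between those of OreR (14.2 to 26.2) and w1118 (85.6 to 128) XX and XY. Ir68a had 28.8 and 18.1 in the XX heterozygotes, Ir93a had 14.2 and 10.8, Ir21a had 4.24 and 3.97, and Gr64a had 11.8 and 3.97. These were 2 libraries, and no test was made.

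The sweet receptor Gr64a, under the filter of the deficiency line fits, had lowest, median and highest normalized read counts of 0, 4.04 and 15.3 in tra2 XX, 0, 0.951 and 4.99 in XX, and 0, 1.29 and 12.6 in XY of the 3L lines. In the X lines it had 0, 2.84 and 12.1 in tra2 XX, against 0, 1.13 and 8.09 in XX. No test of these differences is given.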
